A study of Homo sapiens with 12 samples.

Results

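The histone genes were taken as the protein-coding genes of the deposited table whose symbols begin with HIST1H to HIST4H, H2AF, H1F or H3F. Of 58302 genes in the table, 87 met this rule. They comprise 71 HIST genes, which are the clustered replication-dependent genes, and 16 genes for variant histones. By histone type the HIST genes comprise 6 for H1, 17 for H2A, 18 for H2B, 15 for H3 and 15 for H4. Of the HIST genes, 55 lie on chromosome 6, 15 on chromosome 1 and 1 on chromosome 12. A filter on low counts kept 38 members for testing, 28 HIST genes and 10 variant genes. The other 49 had too few counts: 7 of the 87 had no count in any of the 12 libraries, and the 43 untested HIST genes held 7.61% of all HIST counts.

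Histones package DNA into nucleosomes, with H2A, H2B, H3 and H4 in the core and H1 on the linker. Replication-dependent histone genes supply new histones in S phase, and their principal mRNAs end in a conserved stem-loop instead of a poly(A) tail, bound by the stem-loop binding protein SLBP. Variant genes such as H2AFZ, H2AFX and H3F3B are expressed outside S phase as well, and most variant mRNAs are spliced and polyadenylated. H2AFX differs in that its annotated transcript holds a stem-loop. Some HIST genes also make longer polyadenylated transcripts that run past the stem-loop, among them HIST2H2BE and HIST1H2AC. A library made from polyadenylated RNA therefore reads most variant genes directly but sees a HIST gene mainly through its polyadenylated forms. Whether H2AFX RNA that ends at the stem-loop went uncounted was not tested.

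The libraries came from U251 and U87, established human glioma cell lines grown in culture. Each line had 3 control libraries, labelled only by their medium (10%DMEM), and 3 libraries treated with artesunate, an antimalarial sesquiterpene lactone, for 24 h. U251 received 180 µM and U87 received 24.08 µM, so dose and cell line cannot be told apart. All 12 libraries carry the label day 9, and the protocol text names artemisinin where the sample labels name artesunate. No solvent-treated control is named, and nothing states whether the replicates were separate cultures, so p-values measure only the spread between these libraries.

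Each library held 13631985 to 17314284 counts. Base composition differed with treatment: the GC content of the counted transcripts, weighted by count, was 46.2% to 47.2% in the U87 artesunate libraries and 49.3% to 49.9% in the U87 controls, against 48.1% to 48.2% in U251 controls and 48.6% to 49.1% in U251 artesunate libraries. Over 17089 tested genes with a GC value, the Spearman correlation of the U87 log2 fold change with GC content was -0.63, given as a description across genes, which are not replicates. U87 artesunate replicate 2 stood furthest from its group. VIM, CD44 and EGFR were expressed in both lines, GFAP averaged 67.8 CPM in U251 controls and 1.04 in U87 controls, SOX2 averaged 243 CPM in U251 artesunate libraries and was at 0 counts in U87, and AQP4 had no count in either. Leukocyte markers AIF1 (0 counts) and PTPRC (at most 4 counts in a library) were at or near 0, while CSF1R averaged 21.0 CPM in U87 controls.

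HIST genes made up a small part of histone counts, larger in U87 than in U251. Summed over the 71 genes, the HIST level was 44.4, 48.9 and 49.95 CPM (counts scaled to equal library totals) in the 3 U251 controls and 51.7, 49.4 and 46.0 CPM in the 3 U251 artesunate libraries. The U87 controls held 128, 122 and 130 CPM and the U87 artesunate libraries 81.8, 83.7 and 86.9 CPM. In U251 the 2 groups overlapped, whereas in U87 every artesunate library lay below every control, and both U87 groups lay above every U251 library. The means were 47.8 ± 2.95, 49.0 ± 2.83, 127 ± 4.36 and 84.1 ± 2.60 CPM (SD, n = 3 each) in the order U251 control, U251 artesunate, U87 control, U87 artesunate.

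The 16 variant genes ran the other way between the lines. Their summed level was 1863 ± 79.1 CPM in U251 controls, 1618 ± 81.1 in U251 artesunate, 1178 ± 40.9 in U87 controls and 1170 ± 103 in U87 artesunate libraries (SD, n = 3 each). Every U251 artesunate library lay below every U251 control, while the U87 groups overlapped. The U87 overlap depended on H2AFZ, the variant gene with the most counts. Without H2AFZ the sums were 816 to 867 CPM in U87 controls and 664 to 744 in U87 artesunate libraries. In U251 they were then 1509 to 1600 CPM in controls and 1315 to 1380 in artesunate libraries. HIST genes took 2.50% ± 0.120 of histone counts in U251 controls, 2.94% ± 0.0224 in U251 artesunate, 9.74% ± 0.497 in U87 controls and 6.73% ± 0.527 in U87 artesunate libraries (SD, n = 3 each). These shares compare counts and are not corrected for transcript length. A list of 23 other RNAs without a poly(A) tail summed to 21.8 to 74.7 CPM in U87 controls, 3.41 to 5.64 in U87 artesunate, 4.20 to 6.26 in U251 controls and 7.94 to 12.1 in U251 artesunate libraries. RN7SL1 and RN7SL2 carried the U87 difference, from means of 17.6 and 25.03 CPM in controls to 0.887 and 0.633 CPM in artesunate libraries. Of the 23 only 3 passed the filter on low counts, and 2 of these, RN7SL1 and RN7SL2, fell in U87 (edgeR, adjusted p under 0.05). In that comparison 29.2% of all tested genes were lower, so 2 genes do not describe the list as a whole. SNORA73B, the third, was at 0.65 on the log2 scale and rose with a correction for GC content and length (1.76, adjusted p 0.000425, edgeR). The part of RNA without a tail in the HIST levels was not tested.

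**Figure D1:**
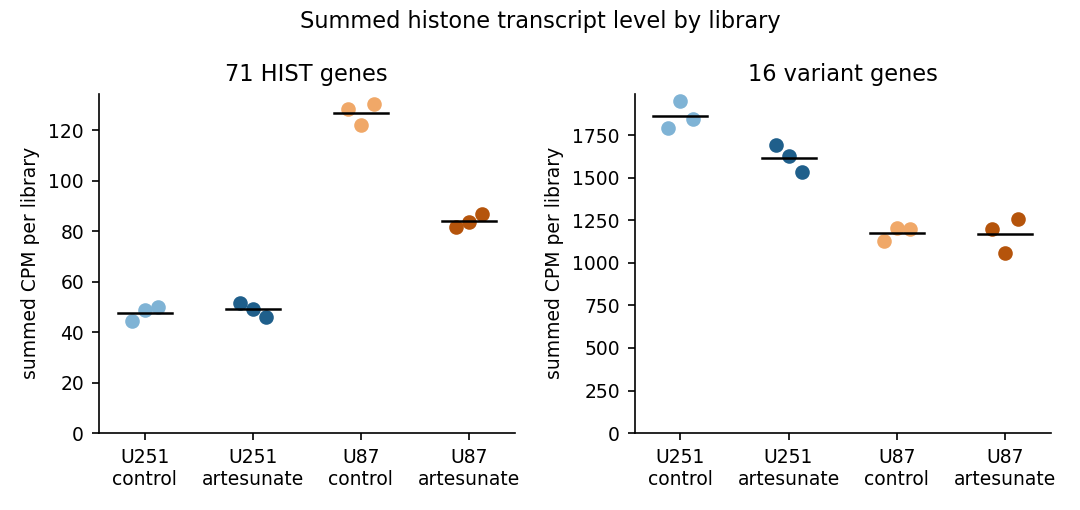
Summed level in CPM (y axis, from 0) of the 71 HIST genes (left) and the 16 variant genes (right) in each library; points are libraries, bars are group means, and the x axis gives the 4 groups. HIST levels are 122 to 130 CPM in U87 controls and 81.8 to 86.9 in U87 artesunate libraries, and lie between 44.4 and 51.7 in U251.

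Within the HIST class, median counts differed between the annotated transcript forms. The stem-loop is written below as it occurs in annotated transcripts, with the 6 bases of each paired arm in capitals and the 4-base loop in lower case.
HIST2H2BE and 16 other HIST genes: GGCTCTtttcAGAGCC
HIST1H4H and 4 other H4 genes: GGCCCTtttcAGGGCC
HIST1H2BD and 4 other HIST genes: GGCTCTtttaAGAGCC
HIST2H4A, HIST2H4B and HIST1H4I: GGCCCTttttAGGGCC
HIST1H2AG: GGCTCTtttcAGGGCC
H2AFX: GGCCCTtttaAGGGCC
The variant gene H2AFX was the only variant member with a 16-base match, and its longest annotated transcript goes on for 1044 bases after it. H2AFX encodes the H2A that is phosphorylated at DNA breaks.

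Each HIST gene was placed in 1 of 4 forms. Genes with a stem-loop were placed by the longest run past it in any annotated transcript, and genes without by splicing. In 22 genes a transcript ran more than 100 bases past the stem-loop, and 16 of these reached 10 counts in at least 3 libraries. For 37 genes the annotation held an unspliced stretch with no stem-loop, and 7 of them reached that level. Transcripts of 9 genes ended close after the stem-loop (4 reached it) and those of 3 genes were spliced with no stem-loop (2 reached it). The 22 genes with a run past the stem-loop held 49.5% of all HIST counts, with a median of 176.5 counts over the 12 libraries, against 19 for the 37 unspliced stretches. These counts are not corrected for transcript length, which also differed between the forms, and the part of length was not tested. HIST1H1C (1947 counts) and HIST1H2BK (1729 counts) were the most counted HIST genes although their annotation holds no long form, and HIST1H4C, a gene for the core histone H4, had 0 to 4 counts a library and was not tested.

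**Figure D2:**
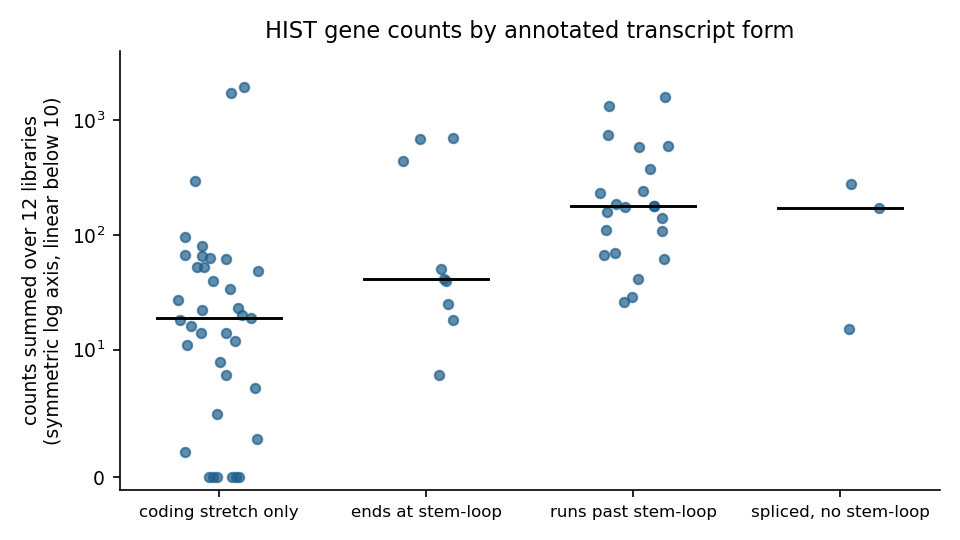
Counts of each of the 71 HIST genes summed over 12 libraries (y axis, symmetric log scale that is linear below 10) by annotated transcript form (x axis). Points are genes, spread sideways at random, and bars are medians. The median is 176.5 for genes whose transcript runs past the stem-loop and 19 for unspliced stretches with no stem-loop.

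Promoters were matched for 75 members (61 HIST and 14 variant genes) in RefSeq on GRCh38.p14. Within 250 bases before the start, on either strand, TATAAA occurred in 68.9% of HIST genes, 28.6% of variant genes and 10.7% of 35116 RefSeq starts. CCAAT occurred in 83.6%, 85.7% and 32% of the same sets, but in 23.1% of H4 genes. ATTTGCAT, the octamer of H2B promoters, occurred in 69.2% of H2B genes, 68.8% of H2A genes, 7.14% of variant genes and 1.63% of all starts. The stretches below end 5 bases before the start. They come from an H2B pair with opposite U87 changes and from the variant genes with the largest U87 falls, both without correction for GC content and length. With that correction HIST1H2BK was at -0.18 and H2AFJ fell furthest (-2.57). Capitals mark the TATA motif, the CCAAT motif on either strand (ATTGG where it is on the other) and the octamer.
HIST2H2BE: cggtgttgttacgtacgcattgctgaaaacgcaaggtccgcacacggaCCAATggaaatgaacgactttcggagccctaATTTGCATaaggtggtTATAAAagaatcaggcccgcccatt
HIST1H2BK: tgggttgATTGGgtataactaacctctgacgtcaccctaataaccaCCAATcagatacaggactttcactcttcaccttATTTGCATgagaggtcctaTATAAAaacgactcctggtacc
H2AFX: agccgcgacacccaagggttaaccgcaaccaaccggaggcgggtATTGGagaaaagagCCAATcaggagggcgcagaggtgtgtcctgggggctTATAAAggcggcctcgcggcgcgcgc
H1FX: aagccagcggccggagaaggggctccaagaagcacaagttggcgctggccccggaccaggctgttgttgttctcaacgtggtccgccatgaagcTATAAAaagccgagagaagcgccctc
All 4 lie on the minus strand, at chr1:149886688-149886807, chr6:27146864-27146983, chr11:119095471-119095590 and chr3:129316292-129316411. HIST2H2BE and HIST1H2BK both hold all 3 motifs, H2AFX holds the TATA and CCAAT motifs, and H1FX holds the TATA motif alone in the stretch shown. A match describes letters only, and a missing match says only that these letters are not in this window.

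Between the untreated lines the HIST genes were mostly lower in U251, and 6 of 10 tested variant genes were higher. Of 28 tested HIST genes, 19 were lower and 0 higher in U251 controls than in U87 controls (edgeR's quasi-likelihood test, Benjamini-Hochberg adjusted over 17150 genes, threshold 0.05), and the median log2 difference was -1.25, against -0.003 over all tested genes. In this comparison 64.8% of all tested genes were called, 32.5% higher and 32.3% lower. Of 10 variant genes, 6 were higher (H2AFV, H2AFX, H2AFY, H2AFY2, H3F3A and H3F3B) and 1, H2AFJ, was lower. With the GC and length offset, a correction of each library for the GC content and length of transcripts, 16 HIST genes were lower and 0 higher, and 7 variant genes were higher and 1 lower, beside 66.5% of all genes called (34% higher, 32.6% lower).

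HIST1H2BK, an H2B gene of the chromosome 6 cluster, had 76, 77 and 72 counts in U251 controls and 362, 347 and 343 in U87 controls. The groups were far apart, with a log2 difference of -2.14 ± 0.14 (SE, adjusted p 9.67e-08, edgeR). HIST1H1C, a linker histone gene and the HIST gene with the most counts, had 58, 76 and 75 counts in U251 controls and 376, 304 and 301 in U87 controls (log2 difference -2.14 ± 0.17, adjusted p 4.73e-07, edgeR). HIST2H2AA3, 1 of 2 near-identical H2A genes, had 31, 23 and 28 counts against 144, 130 and 116 (log2 difference -2.15 ± 0.21, adjusted p 2.58e-06, edgeR). Reads of HIST2H2AA3 and its copy HIST2H2AA4 can be split arbitrarily, and their summed counts were 35 to 55 in U251 controls and 242 to 281 in U87 controls. HIST2H2BE, HIST1H4H, HIST1H2AG and HIST1H2BH were not called, with log2 differences of -0.34, 0.25, -0.18 and -0.07.

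Some members had counts almost entirely in 1 line. H2AFJ, an H2A variant gene on chromosome 12, had 0 counts in all 6 U251 libraries and 279, 245 and 246 in U87 controls, which is at least 246-fold higher in U87 controls against a floor of 3 counts over the U251 control group. HIST4H4, its neighbour on chromosome 12, had 0, 2 and 7 counts in U251 controls and 25, 16 and 23 in U87 controls. The H4 genes HIST1H4K and HIST1H4J had no counts in U251 controls and 78 and 38 in U87 controls together, at least 24.9-fold and 12.1-fold higher in U87 against the same floor. Each had 2 counts in 1 U251 artesunate library and 0 in the other U251 libraries. H2AFY2, which encodes the macroH2A2 variant, ran the other way, with 85, 74 and 85 counts in U251 controls and 0 in every U87 control, at least 84.9-fold higher in U251 against 3 counts over the U87 control group. U87 artesunate replicate 2 held 7 counts of H2AFY2 and the other artesunate replicates of U87 held 0. The AIFM2 gene overlaps H2AFY2 on the opposite strand and holds far more counts (11914 over all libraries), and whether counting used strand is not given in the sources used here.

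Levels of the variant genes are given as FPKM, scaled to transcript length and library total, which allows genes to be set side by side. In U251 controls H2AFX stood highest at 105 ± 0.302 FPKM, followed by H1FX (59.5 ± 1.66), H2AFV (55.9 ± 0.680), H2AFZ (49.2 ± 16.4), H3F3B (36.0 ± 2.44), H1F0 (35.5 ± 1.30), H3F3A (16.2 ± 2.59), H2AFY (6.67 ± 0.459) and H2AFY2 (2.31 ± 0.260), each mean ± SD of 3 libraries. H2AFZ, with its wide spread, overlapped H1FX and H2AFV, which did not overlap each other, and H3F3B overlapped H1F0. In U87 controls the order was H1FX (61.2 ± 3.92), H2AFZ (50.8 ± 1.96), H2AFX (41.7 ± 0.766), H1F0 (32.8 ± 3.02), H2AFV (22.2 ± 0.567), H3F3B (19.95 ± 1.34), H2AFY (4.99 ± 0.216), H3F3A (3.72 ± 1.03) and H2AFJ (3.45 ± 0.125). H3F3A overlapped H2AFY and H2AFJ there, and H2AFY lay above H2AFJ in every library. Under U87 artesunate H2AFZ stood highest at 73.2 ± 10.9 FPKM, while H2AFX was at 3.64 ± 2.23 and H1FX at 9.81 ± 7.84.

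**Figure D3:**
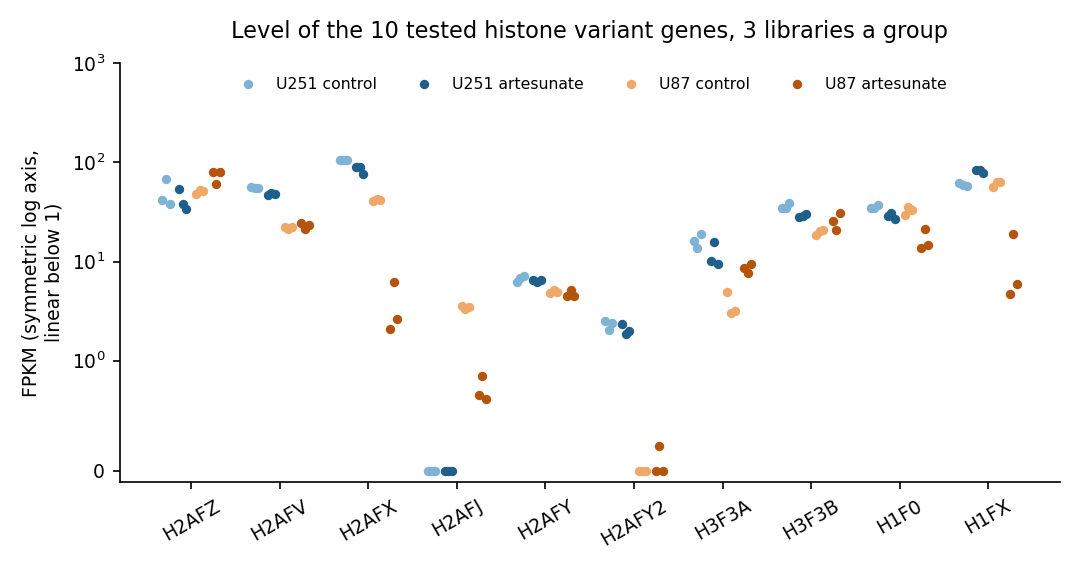
FPKM of the 10 tested variant genes (x axis) in every library (y axis, symmetric log scale that is linear below 1), coloured by group, 3 libraries a group. H2AFX and H1FX are at 2.08 to 18.8 FPKM in U87 artesunate libraries and at 40.9 or more in the other groups, and H2AFJ is at 0 in U251.

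H2AFZ and H2AFV encode the 2 H2A.Z proteins, H2A.Z.1 and H2A.Z.2. H2AFV was higher in U251 controls (5429, 5785 and 5592 counts) than in U87 controls (2489, 2243 and 2235), with no overlap and a log2 difference of 1.36 ± 0.08 (SE, adjusted p 2.04e-08, edgeR). H2AFZ overlapped between the lines, with 4068, 7171 and 3869 counts against 5439, 5516 and 5186. H2AFZ thus made up 46.0% ± 7.84 of the H2AFZ and H2AFV FPKM in U251 controls and 69.6% ± 1.25 in U87 controls (SD, n = 3). H3F3A and H3F3B encode the same H3.3 protein. H3F3A had 1081, 988 and 1321 counts in U251 controls and 378, 222 and 221 in U87 controls (log2 difference 2.15 ± 0.24, adjusted p 7.52e-06, edgeR), and H3F3B differed by 0.88 ± 0.13 (adjusted p 8.46e-05, edgeR). Reads can be shared between H3F3A and the pseudogene H3F3AP4, which held 1448 to 3942 counts a library, so the H3F3A level is uncertain.

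Artesunate at 180 µM left no tested histone gene past the threshold in U251. In edgeR's quasi-likelihood test 0 of 38 members were called, where 8.34% of all tested genes were (4.09% higher, 4.26% lower). At an unadjusted p under 0.05 in the same test there were 8 of 28 HIST genes and 1 of 10 variant genes. These stand beside 4051 of all 17150 tested genes at that level. DESeq2 also called 0 members. The median log2 fold change was 0.06 over 28 HIST genes, -0.19 over 10 variant genes and 0.00 over all tested genes. The count of 0 did not hold everywhere. Without U87 artesunate replicate 2, 3 variant genes were called (H2AFV -0.19, H3F3B -0.27 and H1FX 0.49 as log2 fold changes). Leaving that library out also changed the filter (17606 genes tested), the scaling and the shared spread. With limma on log2(FPKM + 1), 3 HIST genes and 1 variant gene were called. The share of all genes called is not set beside these counts, so they are not a result about histone genes.

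HIST1H2AC, an H2A gene with long transcripts, had 69, 96 and 97 counts in U251 controls and 108, 120 and 145 in artesunate libraries. All 3 treated libraries lay above the controls in counts (log2 fold change 0.56 ± 0.19, adjusted p 0.103, edgeR), and the value passed the threshold with the offset (0.73 ± 0.17, adjusted p 0.0189, edgeR), under which 1 of 28 HIST and 1 of 10 variant genes were called beside 9.17% of all genes (4.59% higher, 4.58% lower). HIST2H2BE, an H2B gene, had 42, 39 and 38 counts against 65, 51 and 55 (0.58 ± 0.21, adjusted p 0.12, edgeR). HIST1H2BD, also an H2B gene, had 20, 19 and 8 against 35, 24 and 27 (0.92 ± 0.34, adjusted p 0.123, edgeR). HIST1H2BK was lower in every treated library, with 76, 77 and 72 counts against 52, 65 and 51 (-0.37 ± 0.15, adjusted p 0.153, edgeR). HIST1H1C had 58, 76 and 75 counts against 68, 62 and 48, with overlapping groups (-0.17 ± 0.18).

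Among the variant genes in U251, H2AFX had 4712, 5099 and 4935 counts in controls and 3859, 4328 and 3711 in artesunate libraries. The treated libraries were lower in each case (log2 fold change -0.26 ± 0.26, adjusted p 0.602, edgeR), and with the GC and length offset the value was -0.58 ± 0.09 (adjusted p 0.00224, edgeR). H1FX, a linker histone variant, had 1388, 1442 and 1390 counts against 1780, 2063 and 1920 (0.50 ± 0.35, adjusted p 0.426, edgeR), and 0.13 with the offset. H1F0, the linker histone H1.0 of non-dividing cells, had 1214, 1337 and 1369 against 964, 1169 and 1015 (-0.27 ± 0.14, adjusted p 0.268, edgeR). H2AFV, H3F3B, H3F3A, H2AFZ and H2AFY had log2 fold changes of -0.18, -0.26, -0.42, -0.19 and -0.02.

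In U87, artesunate at 24.08 µM was accompanied by changes in both classes and both directions. Of 28 tested HIST genes, 3 rose and 8 fell, and of 10 variant genes 3 rose and 4 fell (edgeR, as above). These 18 of 38 stand beside 58.3% of all tested genes called, 29.2% higher and 29.2% lower. With both classes pooled, the share called was thus not above that of all genes. By class, 11 of 28 HIST genes lay below that share and 7 of only 10 variant genes lay above it. The median log2 fold change was -0.21 over HIST genes, 0.05 over variant genes and 0.00 over all tested genes. With the GC and length offset, under which 45.8% of all genes were called (24.1% higher, 21.7% lower), 2 HIST genes rose and 2 fell, and 3 variant genes rose and 6 fell. Of the 11 HIST calls 3 were kept in the same direction (HIST2H2BE, HIST1H2BH and HIST1H2AG), and of the 7 variant calls all 7 were. The fourth HIST call with the offset was HIST3H2A, an H2A gene, which turned from -0.23 (adjusted p 0.343, edgeR) to 0.55 (adjusted p 0.0165). Because the mRNA pool is bulk, fewer cells with a transcript and less transcript per cell cannot be told apart.

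**Figure D4:**
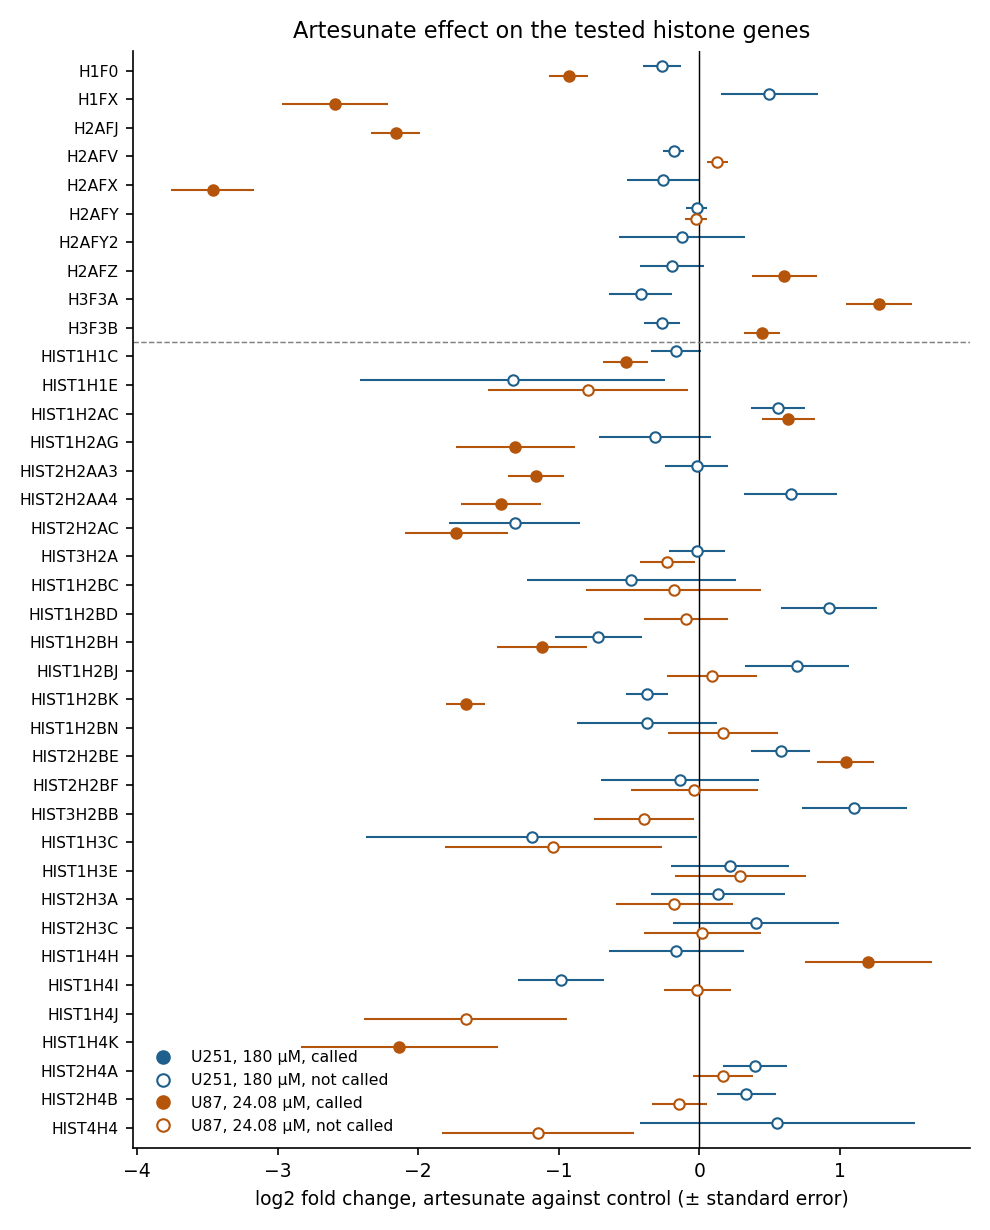
Log2 fold change with its standard error (x axis) of artesunate against control for each tested member (y axis), in U251 (blue) and U87 (orange); filled points passed an adjusted p of 0.05, and the dashed line separates variant genes (above) from HIST genes (below). No U251 point is filled; no value is drawn for H2AFJ, HIST1H4J and HIST1H4K in U251 or H2AFY2 in U87, where a control group had no counts.

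The H2A variants moved in both directions. H2AFX fell furthest without the offset and H2AFJ with it. H2AFX had 2113, 2058 and 1957 counts in U87 controls and 89, 252 and 128 in artesunate libraries. Even the highest treated library, replicate 2, lay far below every control, and the log2 fold change was -3.46 ± 0.29 (SE, adjusted p 1.94e-06, edgeR), -4.05 without that replicate and -1.85 ± 0.10 with the GC and length offset (adjusted p 1.24e-07). H2AFJ had 279, 245 and 246 counts against 45, 53 and 48, again without overlap (-2.16 ± 0.18, adjusted p 2.37e-05, edgeR), and -2.57 with the offset. H2AFZ had 5439, 5516 and 5186 counts against 7395, 5347 and 8292. Treated replicate 2, from the smallest library, lay among the controls in raw counts but above each of them when scaled to library totals. The rise of 0.61 ± 0.23 (adjusted p 0.0396, edgeR) was lost when any of several single libraries was left out. Its adjusted p reached 0.123 without artesunate replicate 3. H2AFV (0.13 ± 0.08) and H2AFY, the macroH2A1 gene (-0.02 ± 0.08), were not called, and with the offset both fell, to -0.28 (adjusted p 0.000845, edgeR) and -0.44 (adjusted p 0.00123, edgeR).

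Both linker variants fell. H1FX had 1480, 1563 and 1487 counts in U87 controls and 102, 387 and 143 in artesunate libraries, with replicate 2 again the highest treated library and below every control. The log2 fold change was -2.59 ± 0.38 (adjusted p 0.000104, edgeR), -3.44 without that replicate and -0.80 ± 0.15 with the offset (adjusted p 0.00107). H1F0 had 1201, 1361 and 1211 counts against 459, 674 and 551 (-0.93 ± 0.14, adjusted p 0.000131, edgeR), with no overlap, and -0.58 with the offset. H1F0 made up 34.8% ± 0.905 of the H1F0 and H1FX FPKM in U87 controls and 66.1% ± 11.6 in U87 artesunate libraries, while in U251 it went from 37.4% ± 1.39 to 26.0% ± 0.679 (SD, n = 3).

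Both H3.3 genes rose in U87. H3F3A had 378, 222 and 221 counts in controls and 544, 465 and 682 in artesunate libraries, and every treated library exceeded every control (log2 fold change 1.28 ± 0.23, adjusted p 0.00057, edgeR, and 0.71 with the offset). H3F3B had 3912, 4071 and 4005 against 4558, 3462 and 6060. In raw counts its treated libraries spread to both sides of the controls. Scaled to library totals, treated replicate 2 lay within the control range and the other treated libraries lay above it. The rise was 0.45 ± 0.13 (adjusted p 0.0101, edgeR), and without artesunate replicate 3 it was 0.27 (adjusted p 0.0534). The pseudogene H3F3AP4 went from 99.4 to 102 CPM in U87 controls to 106 to 127 CPM in artesunate libraries.

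Of the HIST genes that fell in U87, HIST1H2BK changed with the smallest p. It had 362, 347 and 343 counts in controls and 98, 77 and 109 in artesunate libraries, a log2 fold change of -1.66 ± 0.14 (adjusted p 1.89e-06, edgeR). With the offset it was -0.18 ± 0.19 (adjusted p 0.461, edgeR). The offset used the longest annotated HIST1H2BK transcript, a stretch of 381 bases with no stem-loop. Whether that matches the RNA counted was not tested. HIST2H2AC, an H2A gene, had 59, 60 and 67 counts against 10, 17 and 21, without overlap (-1.73 ± 0.37, adjusted p 0.00161, edgeR), and -0.12 with the offset. HIST2H2AA3 had 144, 130 and 116 against 46, 41 and 62 (-1.16 ± 0.20, adjusted p 0.000347, edgeR), and 0.23 with the offset. HIST2H2AA4 changed by -1.41 ± 0.29 (adjusted p 0.0012, edgeR), with a summed count for both copies of 242 to 281 in controls and 73 to 114 in treated libraries. HIST1H1C had 376, 304 and 301 counts against 181, 196 and 202, and its change of -0.52 ± 0.16 (adjusted p 0.0146, edgeR) became 0.33 (adjusted p 0.0992) with the offset and lost its call without control replicate 1 (adjusted p 0.0514). HIST1H2BH (-1.12), HIST1H2AG (-1.31) and HIST1H4K (-2.14) were the other HIST genes that fell. With the offset HIST1H2BH (-1.63, adjusted p 0.00188, edgeR) and HIST1H2AG (-1.45, adjusted p 0.0141, edgeR) were still called. HIST1H4K was then at -0.29 (adjusted p 0.804, edgeR).

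The HIST genes that rose in U87 all have long annotated transcripts. HIST2H2BE had 51, 60 and 49 counts in controls and 102, 72 and 108 in artesunate libraries. Every treated library exceeded every control (log2 fold change 1.04 ± 0.20, adjusted p 0.000908, edgeR), and the value with the offset was 0.97 ± 0.19 (adjusted p 0.00125). The pseudogene HIST2H2BC of the same cluster had 94 to 127 counts in controls and 195 to 235 in treated libraries, and reads shared between related H2B genes were not tested. HIST1H2AC had 140, 107 and 155 counts against 170, 139 and 227, with groups that overlapped in raw counts. Scaled to library totals, every treated library lay above every control (0.63 ± 0.19, adjusted p 0.0126, edgeR). That call was lost without control replicate 2 or artesunate replicate 3 (highest adjusted p 0.0649) and with the offset (0.13, adjusted p 0.565). HIST1H4H, an H4 gene, had 17, 9 and 9 counts against 33, 18 and 17 (1.201 ± 0.45, adjusted p 0.0383, edgeR), and without artesunate replicate 1 it was 0.79 (adjusted p 0.1825). HIST1H2BD overlapped between groups, with 69, 53 and 48 counts against 51, 35 and 49 (-0.10 ± 0.30).

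Transcript form and GC content went together among the HIST genes. Of 18 tested HIST genes with a transcript that runs past the stem-loop, or spliced with no stem-loop, 3 rose and 2 fell in U87. Their median log2 fold change was -0.02 and their median GC content 47.4%. Of the 10 tested genes without such a form, 0 rose and 6 fell, with a median of -1.29 and a median GC content of 61.5%. These 10 include HIST1H2BD, which has an annotated transcript of 2 exons but no long run past the stem-loop. With the offset the medians were -0.03 and -0.09, and 2 rose and 2 fell in the first set and none was called in the second. Over the 28 tested HIST genes the Spearman correlation of the U87 log2 fold change was -0.61 with GC content and 0.63 with log transcript length, as descriptions across genes. Form, GC content and length therefore cannot be told apart here. Over all tested genes the median U87 log2 fold change went from 0.72 at 30% to 40% GC to -1.30 at 60% to 70% GC. H2AFX (66.4% GC) and H1FX (68.6% GC) fell further than that median.

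**Figure D5:**
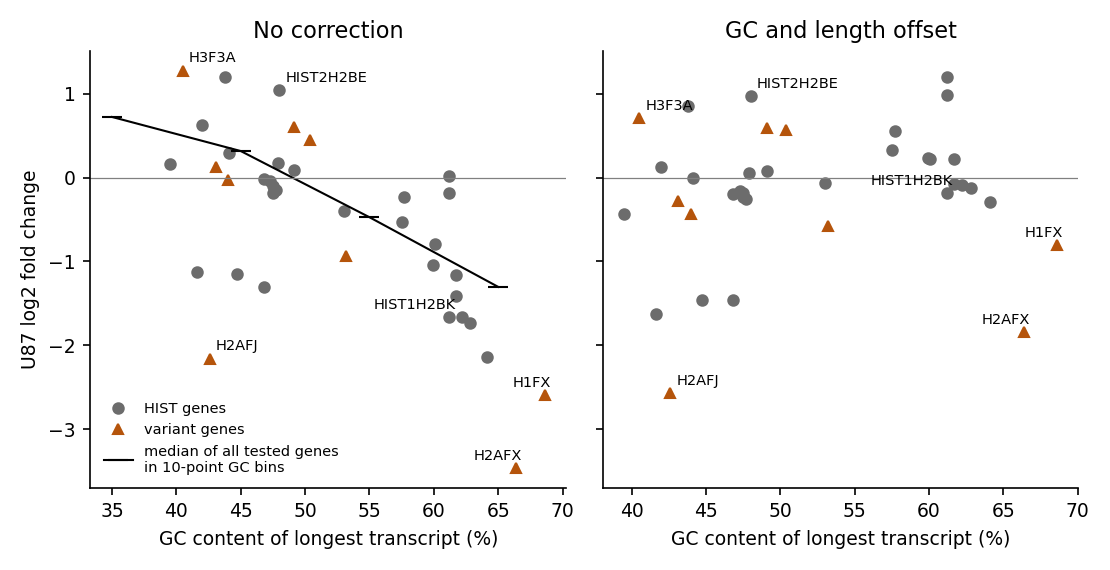
U87 log2 fold change (y axis) against the GC content of the longest annotated transcript (x axis) for tested HIST genes (grey circles) and variant genes (orange triangles; H2AFY2 not drawn), without correction (left) and with the GC and length offset (right); the black line joins medians of all tested genes in 10-point GC bins. H2AFX moves from -3.46 to -1.85 and HIST1H2BK from -1.66 to -0.18 with the offset.

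The difference between the 2 artesunate effects was tested directly, with a positive value where the change in U251 was above that in U87. For 10 members the difference was called (4 HIST and 6 variant genes), beside 49.4% of all tested genes (24.1% higher, 25.3% lower). H2AFX differed by 3.21 ± 0.38 (SE, adjusted p 4.87e-05, edgeR), H1FX by 3.09 ± 0.51 (adjusted p 0.000408), HIST1H2BK by 1.29 ± 0.20 (adjusted p 0.000308) and HIST2H2AA4 by 2.06 ± 0.44 (adjusted p 0.00212). On the other side H3F3A differed by -1.70 ± 0.32 (adjusted p 0.00108, edgeR), H3F3B by -0.71 ± 0.18 (adjusted p 0.00638) and H2AFV by -0.31 ± 0.11 (adjusted p 0.0295). With the offset, under which 30.1% of all genes were called (14.1% higher, 16% lower), H2AFX (1.26), H1FX (0.94), H3F3A (-0.92) and H3F3B (-0.86) were still called. HIST1H2BK (-0.40) and HIST2H2AA4 (0.51) were not, and H2AFV turned to 0.20 (adjusted p 0.0488, edgeR). HIST2H2AA3 turned from 1.14 to -0.46 (adjusted p 0.374, edgeR), and HIST3H2A from 0.21 to a called -0.71 (adjusted p 0.0404, edgeR). H2AFJ, with no count in U251, has no such estimate. Since the doses differed, the difference cannot be assigned to the cell line.

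Among genes listed for histone mRNA processing and for placing histones, more fell than rose in U87. Of 31 tested genes on the processing list, 9 rose and 16 fell in U87 (median log2 fold change -0.28), and 5 rose and 12 fell there with the offset. In U251, 1 rose and 3 fell (median -0.05). All tested genes stand at 58.3% called in U87 and 8.34% in U251. SLBP, which binds the stem-loop, fell in U87 by 0.73 ± 0.09 on the log2 scale (adjusted p 2.25e-05, edgeR) and was at -0.07 in U251. NPAT, the coactivator of HIST transcription, rose in U87 (0.66 ± 0.12, adjusted p 0.000705, edgeR), but was at -0.08 with the offset. CASP8AP2, a partner of NPAT, was at 0.36 in U87 and -0.53 in U251, neither called. In U87 the smallest p values in each direction were those of SRRT (-1.34), a factor at the cap-binding complex, and CPSF2 (0.67), a subunit of the cleavage complex. In U251 they were those of TRIM24 (-0.45), a chromatin reader, and YARS (0.58), a tRNA synthetase. TRIM24 and YARS are not themselves histone mRNA processing factors, so the counts of this list do not describe that process alone.

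Of 39 tested histone chaperones and deposition factors, 11 rose and 19 fell in U87 (median -0.30; 9 rose and 15 fell with the offset), and 0 rose and 3 fell in U251 (median -0.18), beside 29.2% of all tested genes higher and 29.2% lower in U87 and 8.34% called in U251. The smallest p among those that fell in U87 was that of CHAF1A, the large subunit of the chromatin assembly factor that places new H3 and H4 at replication forks. CHAF1A averaged 99.6 CPM in U87 controls and 22.7 CPM in artesunate libraries (-2.06 ± 0.11, adjusted p 8.07e-08, edgeR), and with the offset it was -1.23. TONSL, chosen after its value was seen, fell further, by 3.36 ± 0.25 on the log2 scale (adjusted p 8.45e-07, edgeR). ASF1B, which hands H3 and H4 to that factor, fell by 1.63 ± 0.12 on the log2 scale in U87 (adjusted p 5.71e-07, edgeR). UBN2, a subunit of the HIRA complex that deposits H3.3, rose by 1.91 ± 0.15 (adjusted p 1.07e-06, edgeR). HIRA itself was at -0.06 in U87 and 0.14 in U251, neither called, and with the offset HIRA was called higher in U87 (0.55). SUPT16H, a subunit of the FACT chaperone, had the smallest p in U251 (-0.32 ± 0.06, adjusted p 0.0108, edgeR). CENPA, the centromeric H3, fell in U87 (-1.35 ± 0.16, adjusted p 1.98e-05, edgeR) and was at -0.01 in U251.

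S phase genes fell in both lines. Of 26 tested markers, 18 fell and 0 rose in U251 (median -0.46), and 25 fell and 0 rose in U87 (median -1.15), where 4.26% and 29.2% of all tested genes were lower. PCNA, the replication clamp, fell by 0.66 ± 0.08 on the log2 scale in U251 (adjusted p 0.000833, edgeR), the smallest p of the list there, and by 0.67 ± 0.08 in U87 (adjusted p 3.83e-05, edgeR). MCM5, a subunit of the replicative helicase, had the smallest p in U87, at -2.80 ± 0.10 (adjusted p 1.12e-08, edgeR). The marker sum ran from 2854 to 3244 CPM in U251 controls, 2080 to 2534 in U251 artesunate, 3593 to 4020 in U87 controls and 1417 to 1580 in U87 artesunate libraries. In U251 this fall stood beside HIST sums that overlapped between groups, and in U87 beside a lower HIST sum. The part of S phase in the HIST changes was not tested.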

How the data were processed

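The deposited gene table of 12 polyadenylated RNA libraries was used, in 4 groups of 3. Per the submitters' processing notes the authors used fastp, HISAT2 2.1.0, StringTie 1.3.3b and edgeR 3.30.3 on GRCh38, and deposited raw counts and FPKM values per gene; which tool made the counts and whether strand was used are not given in the sources used here. Library totals were 13631985 to 17314284 counts, and 3 counts correspond to 0.173 to 0.220 CPM in a library. The members, gene lists and tests were chosen with earlier results of these data known. Counts were tested as deposited with edgeR 4.0.16 in R 4.3.3 (TMM scaling, filterByExpr, a model with 4 group means on all 12 libraries, glmQLFit and glmQLFTest), with Benjamini-Hochberg adjustment over 17150 genes and a threshold of 0.05. A standard error is the absolute log2 fold change divided by the square root of F. CPM uses the table's totals.

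Named in full were, in each line and direction, up to 4 called members per class with the smallest p, and a fixed list of 15 members; for the difference and the control comparison up to 4 called members per direction; and of the other lists the called gene with the smallest p and 8 fixed genes. Any other tested member could be named by its values. Alternatives were DESeq2 1.42.0, library totals, other filters, limma 3.58.1 on log2(FPKM + 1) and log2(FPKM + 0.1), a replicate block, an offset for GC content and length of the longest GENCODE 29 transcript, the 6 libraries compared alone, and leaving out each library. All 87 members had the same position in GENCODE 29, and 99.6% of tested genes had a GC value. The fit was tested on simulated data. Replicates of a group correlated at 0.972 to 0.987 on log2 CPM and differed beyond sampling noise. Of 38 tested members, 13 overlap another row of the table by gene span, including HIST2H4A with HIST2H3C and HIST2H4B with HIST2H3A on opposite strands, so their counts are uncertain. Marker lists of neurons, leukocytes, endothelium and epithelium served as checks of the cell lines: their sums were 39.0 to 293 CPM, 0.773 to 24.8 CPM, 21.3 to 101 CPM and 2.44 to 38.6 CPM over all libraries.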

Additional observations from a re-analysis of the deposited data

Results flagged for a closer look

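In 10 histone genes the change with artesunate differed between U251 at 180 µM and U87 at 24.08 µM by a test of the difference itself (edgeR's quasi-likelihood test, adjusted p under 0.05), a test that also called 49.4% of all tested genes. The log2 difference, U251 minus U87, was 3.21 for H2AFX, 3.09 for H1FX, 2.06 for HIST2H2AA4, 1.49 for HIST3H2BB, 1.29 for HIST1H2BK, 1.14 for HIST2H2AA3 and 0.66 for H1F0, and it was -1.70 for H3F3A, -0.71 for H3F3B and -0.31 for H2AFV. For H2AFX, H1FX, HIST2H2AA3, HIST2H2AA4, HIST1H2BK and H1F0 the U87 libraries fell with a call, while no U251 change was called. HIST3H2BB, an H2B gene, had 9, 4 and 8 counts in U251 controls against 15, 17 and 12, and 12, 19 and 15 in U87 controls against 8, 9 and 13, so its difference (adjusted p 0.0304) rests on low counts. With the GC and length offset H2AFX, H1FX, H3F3A and H3F3B kept a called difference in the same direction.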

How the results depend on the processing

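The U251 result of 0 called genes depended on the setting. The GC and length offset called 1 HIST and 1 variant gene, beside 1572 of all 17150 tested genes. The offset with a replicate block called 1 and 2, beside 1252 of all 17150. The 6 U251 libraries alone called 1 and 4, log2(FPKM + 1) 3 and 1, and log2(FPKM + 0.1) 2 and 1. For these last settings the share of all genes called is not given here. Leaving out single libraries gave 0 to 1 HIST genes and 0 to 3 variant genes. The 1 HIST gene came without U251 artesunate replicate 1, beside 652 of all 17635 tested genes. The 3 variant genes came without U87 artesunate replicate 2. In U87 the 11 HIST calls stood beside 10005 of all 17150 genes called. They became 4 with the offset (7847 of all genes) and 5 with the offset and block (7541 of all genes). The 4 HIST calls of the difference stood beside 8478 of all genes. They became 1 with the offset (5159 of all genes), 2 with the offset and block (4846 of all genes) and 7 on log2(FPKM + 1). Without HIST1H1C the HIST sums averaged 43.3, 45.2, 107 and 70.96 CPM in U251 control, U251 artesunate, U87 control and U87 artesunate libraries.

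With the offset 8 HIST and 1 variant signs turned in U87, 11 and 1 for the difference, 1 and 1 in U251, and 0 and 2 between controls. HIST3H2A, HIST2H3A and HIST1H1C were among those that turned both in U87 and for the difference. The values below are those of named genes on the log2 scale, and the cause was not tested. In U251, H2AFY was 0.0059 with no filter, 0.0041 with the offset and 0.0060 with offset and block. In U87 the offset, without and with the block, gave -0.276 and -0.276 for H2AFV, 0.328 and 0.335 for HIST1H1C, and 0.228 and 0.209 for HIST2H2AA3. For the difference it gave -0.395 and -0.378 for HIST1H2BK, and 0.203 and 0.203 for H2AFV. Leaving out single libraries gave ranges of -0.43 to 0.10 for H2AFZ, -0.059 to 0.014 for H2AFY and -0.36 to 0.0013 for HIST1H1C in U251, and of -0.078 to 0.014 for H2AFY and -0.23 to 0.019 for HIST1H2BD in U87.

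Deviations of same-numbered libraries of different groups correlated at -0.066 to 0.0576, and those of differently numbered libraries at -0.0946 to 0.0876. No pairing by number was visible, but with 3 libraries a group these values cannot decide whether the samples were paired. A replicate block gave 11 HIST and 6 variant calls in U87, beside 9760 of all 17150 tested genes. In U251 it gave 0 and 0, beside 1157 of all 17150. Low counts limit most HIST genes, since 3 counts correspond to 0.173 to 0.220 CPM.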

Other observations

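HIST2H3PS2, an H3 gene too low to test, had 54 counts in U87 control replicate 3, 9 in U87 artesunate replicate 1 and 1 to 4 in each of the other libraries. HIST2H2BA, a pseudogene outside the rule, had 36 to 54 counts in U87 controls, 20 to 28 in U87 artesunate libraries and 1 to 7 in U251. HIST2H3DP1, another pseudogene, had 35 to 54 counts in U87 controls, 7 to 31 in U87 artesunate libraries and at most 1 in U251. The testis-type variants H2AFB1, H2AFB2, H2AFB3, H1FNT and H1FOO and the H3.3-like H3F3C had at most 5 counts in any library.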
